A study of Mus musculus with 8 samples.

Results

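The genes described here are AP-1 subunits and related immediate early genes: Fos, Fosb, Fosl1 and Fosl2 of the FOS family, Jun, Junb and Jund of the JUN family, and Atf3, Egr1 and Ier2. They were chosen by name, as rows of the raw count table whose Entrez Gene identifiers map to these mouse symbols, and all 10 were found among the 27179 genes listed. RNA was measured by bulk RNA-seq in cells sorted from lungs of female C57BL/6 mice (C57BL/6J in the methods) with Eml4-Alk tumors, whose Eml4-Alk fusion had been made by cutting both loci with Cas9 and guides carried by an adenovirus. The mice were 18 to 22 weeks old and 11 to 12 weeks past tumor induction, and all had been given 4.5 nmol of QZ1-(PEG2K) intravenously, a PEGylated peptide probe that fluoresces and tags nearby cells once proteases cleave its linker. Lungs were taken 2 h after injection, minced and digested with collagenase. At least 100000 cells with high (QZ1-hi) or low (QZ1-lo) probe signal were then sorted into each sample. How far these steps changed the RNA levels given here, in either population, was not tested. The series holds 4 QZ1-hi libraries, named 4591, 4593, 4595 and 4597 after their labels, and 4 QZ1-lo libraries, named 4592, 4594, 4596 and 4598. The labels number no replicates, so libraries are called replicates 1 to 4 of their population in accession order only as names. The gate took live cells lacking CD45 and CD11b, so tumor, epithelial, stromal and vascular cells could enter each population. Each population is a mixture of cell types, and RNA of immune marker genes was found in both, as given below. Which libraries of the 2 populations share a mouse is not given in the sources used here, and the comparison was unpaired.

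AP-1 is a transcription factor made of a pair of basic leucine zipper (bZIP) proteins, in most cases a FOS or ATF protein joined to a JUN protein, and JUN proteins can also pair among themselves. Fos, Fosb, Jun, Junb, Atf3, Egr1 and Ier2 are immediate early genes, which growth factors, stress and other signals switch on within minutes and without new protein synthesis, through serum response factor with its ternary complex partners and through CREB or ATF proteins. Jund is known for steadier expression in resting cells, and Fosl1 for a later, sustained response to ERK signaling that is itself driven in part by AP-1.

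The promoter sequences of 2 genes that differed between the populations, Fos and Jun, and of 1 that did not pass the test, Junb, are shown because the members did not move together. Each is the stretch of 150 bases just before the RefSeq transcription start in GRCm38.p6, on the gene's own strand, 5′ to 3′. Capitals mark matches to the motifs searched. The Fos stretch is chr12:85473740-85473889 (plus strand), the Jun stretch chr4:95052223-95052372 (minus strand) and the Junb stretch chr8:84978749-84978898 (minus strand).
Fos: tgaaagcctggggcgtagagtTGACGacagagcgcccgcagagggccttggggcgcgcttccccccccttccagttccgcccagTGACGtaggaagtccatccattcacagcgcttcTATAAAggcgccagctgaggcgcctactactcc
Jun: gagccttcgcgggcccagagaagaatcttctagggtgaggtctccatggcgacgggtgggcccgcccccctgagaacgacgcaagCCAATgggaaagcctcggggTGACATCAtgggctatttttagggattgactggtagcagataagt
Junb: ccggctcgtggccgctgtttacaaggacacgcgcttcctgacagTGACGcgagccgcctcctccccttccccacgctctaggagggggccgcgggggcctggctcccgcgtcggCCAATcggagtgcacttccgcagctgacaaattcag
The search covered both strands of the 250 bases before the start, for the 7 members with a RefSeq window (Fos, Fosb, Fosl2, Jun, Junb, Jund and Atf3) and for 32851 windows of the genome. Not every RefSeq start is the gene start in the positions given here. The Jund window (70697489 to 70697788) ends before that gene, which starts at 70698949. The windows of Fosl2 (32136222 to 32136521) and Atf3 (191183284 to 191183583) lie inside their genes. Counts out of 7 thus include windows away from those gene starts. The core TGACG of the cyclic AMP response element, which CREB and ATF proteins bind, was present in 4 of the 7 members and in 17.8% of all windows. It lay 129 to 125 and 66 to 62 bases before the start of Fos, 60 to 56 before Fosb, 106 to 102 before Junb and, on the other strand, 7 to 3 before Atf3. The full element TGACGTCA, which contains that core, was in 1.55% of all windows and in 0 of the 7. TGACATCA, the variant AP-1 site for which the Jun promoter is known, lay 45 to 38 bases before the start of Jun and was in 2.93% of all windows. The AP-1 site TGACTCA was in 4.46% of all windows and in 0 of the 7. A CCAAT match lay 65 to 61 bases before Jun and 36 to 32 before Junb (33.8% of all windows), and TATAAA 33 to 28 before Fos (12.4%). The CArG box, the site of serum response factor, was in 1.47% of all windows and in 0 of the 7, which says only that a full match is not within these 250 bases. These are letter matches, and binding was not measured. Fos lies on chromosome 12 at 85473890 to 85477273 (plus strand, GRCm38), Jun on chromosome 4 at 95049034 to 95052222 (minus strand) and Junb on chromosome 8 at 84974484 to 84978718 (minus strand).

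Library totals ranged from 18380918 to 26847938 counts, of which mitochondrial and ribosomal RNA genes took 43.7% to 65.6% in QZ1-hi and 34.0% to 53.2% in QZ1-lo. Because that share moved with the populations, levels are given as CPM, counts scaled to a common library total with edgeR's TMM factors, which ranged from 0.660 to 1.35. All 10 members passed the filter on low counts, as did 15583 genes in all. Log2 fold changes are QZ1-hi minus QZ1-lo from edgeR's quasi-likelihood test, with p adjusted by Benjamini-Hochberg over all genes tested and called at 0.05. In that test 9.88% of all genes were called higher in QZ1-hi, 8.21% lower and 18.1% in either direction, and the median log2 fold change over all genes was 0.02. Each population had 4 libraries, and p-values measure the spread between these libraries. Whether each library of a population came from a different mouse is not given in the sources used here. Markers of several cell types differed strongly between the populations. All 9 endothelial markers were called higher in QZ1-hi, with summed levels of 969 to 2313 CPM against 73.9 to 292 CPM in QZ1-lo. So were all 7 fibroblast markers (1596 to 3077 against 39.1 to 358 CPM) and all 4 mesothelial markers (38.4 to 268 against 5.93 to 36.5 CPM). Of the 6 pericyte markers 3 were called higher, and all 6 together summed to 116 to 216 against 9.41 to 38.2 CPM. All 5 pan-epithelial markers were called lower (473 to 758 against 1290 to 1758 CPM). So were all 5 ciliated markers (67.6 to 197 against 318 to 600 CPM) and all 3 club cell markers (311 to 973 against 1389 to 3998 CPM). Of the 5 alveolar type 1 markers 4 were called lower, and all 5 together summed to 408 to 643 against 794 to 965 CPM. The fifth, Pdpn, was called higher (log2 fold change 0.72, SE 0.18, adjusted p = 0.0157). All 7 alveolar type 2 markers had a positive log2 fold change and 2 were called higher, Sftpc (0.78, SE 0.21, adjusted p = 0.0231) and Slc34a2 (0.88, SE 0.22, adjusted p = 0.0165), though their summed levels overlapped (6210 to 11427 against 4559 to 7177 CPM). The summed levels of the 9 immune markers (3112 to 6614 against 2382 to 4464 CPM) and the 5 erythroid markers (131 to 1008 against 282 to 3101 CPM) overlapped, and those of the 4 smooth muscle markers did not (25.0 to 38.8 against 10.3 to 21.5 CPM). Of the smooth muscle markers, Tagln and Myh11 were called higher and Acta2 was not called. Cnn1, at no more than 0.773 CPM in any library, was called lower (log2 fold change -4.81, SE 1.12, adjusted p = 0.0118). No listed marker was at 0 in all libraries. RNA of the genes whose proteins the gate selected against was present in both populations. Ptprc, which encodes CD45, was at 131 ± 64.2 against 125 ± 30.0 CPM (SD). Itgam, which encodes CD11b, was at 42.1 ± 10.6 against 46.7 ± 3.47 CPM, and neither gene was called. In bulk samples, fewer cells of a type and less RNA per cell cannot be told apart, and the part of this difference in cell makeup in the results for the AP-1 genes was not tested.

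Of the 10 genes, 5 were called higher in QZ1-hi (Fos, Fosb, Jun, Egr1 and Ier2), each by a fold change of 1.69 to 1.83, and 1 was called lower (Fosl2, QZ1-lo 1.28 times QZ1-hi). The remaining 4, Fosl1, Junb, Jund and Atf3, did not pass the test. The 5 higher calls stand beside a background of 9.88% and the 1 lower call beside 8.21%. The levels of 7 members did not overlap between the populations, 5 with QZ1-hi above and 2 with QZ1-hi below, where 22.6% of all genes tested did not overlap (11.9% above, 10.7% below). The 10 genes had a median log2 fold change of 0.47. When counts were scaled by library size alone, the median of all genes shifted to -0.44 and all 5 higher calls were lost. Relative to that median the 5 fold changes were 0.72 to 0.86, against 0.73 to 0.85 under TMM. A change of scaling moves all genes by a like amount, so this likeness is built in and does not tell which scaling is right. Scaling by library size after mitochondrial and ribosomal RNA genes were left out, an alternative chosen after seeing the data, returned all 5 calls with log2 fold changes of 0.70 to 0.82.

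**Figure D1:**
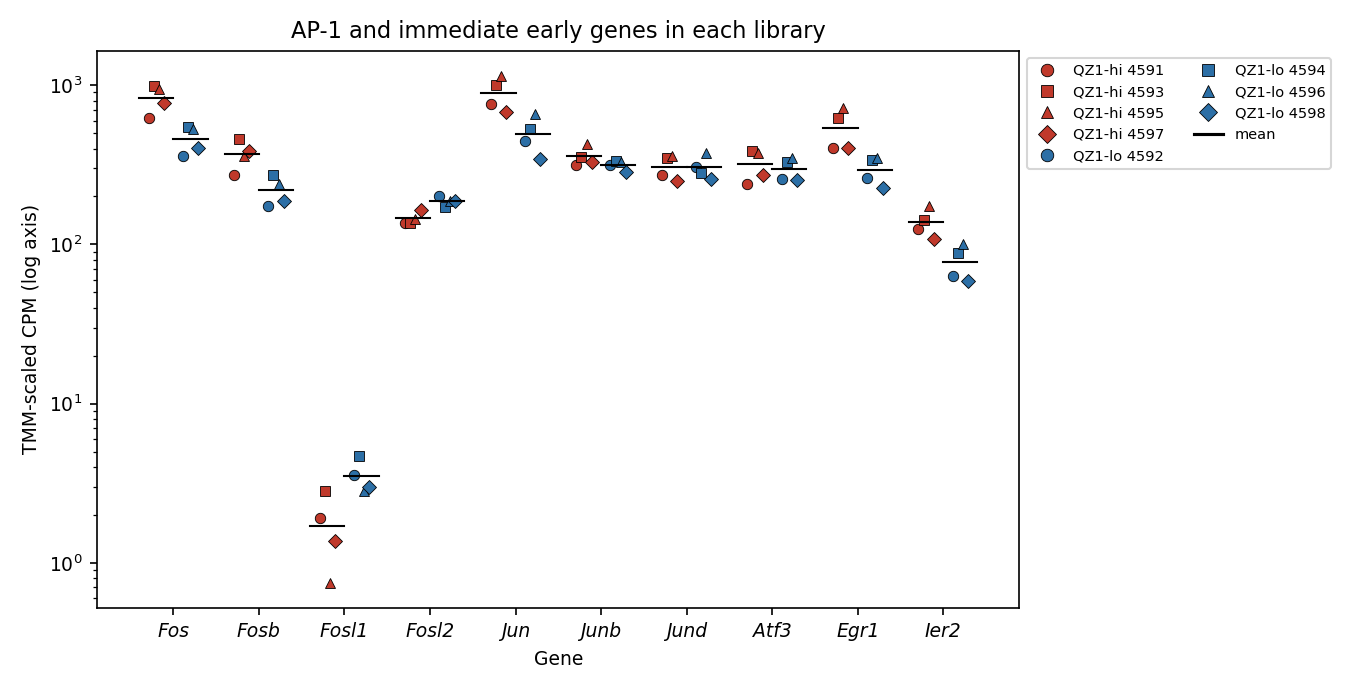
TMM-scaled CPM (log axis) of each of the 10 genes in the 4 QZ1-hi libraries (red) and the 4 QZ1-lo libraries (blue), with the mean as a bar. Marker shapes name libraries and do not pair them. Fos, Fosb, Jun, Egr1 and Ier2 lie higher in every QZ1-hi library, Fosl2 lies lower, Junb, Jund and Atf3 overlap, and Fosl1 is far below the rest at 0.752 to 4.68 CPM.

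Fos, the founding FOS protein, which pairs only with partners such as JUN and does not bind DNA alone, was at 623, 992, 940 and 769 CPM in QZ1-hi libraries 4591, 4593, 4595 and 4597. In QZ1-lo libraries 4592, 4594, 4596 and 4598 it was at 361, 545, 528 and 403 CPM. Library 4593 was the highest of QZ1-hi and 4591 the lowest, and that lowest value was still 78.3 CPM above the highest QZ1-lo library. The means were 831 ± 168 and 459 ± 91.0 CPM (SD, n = 4 libraries each). This difference was 0.86 on the log2 scale (SE 0.18, adjusted p = 0.00770), and the call held when each library was left out in turn, with log2 fold changes of 0.74 to 0.97.

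Fosb, the closest relative of Fos (chromosome 7, 19302696 to 19310051, minus strand), was at 274, 461, 357 and 386 CPM in the QZ1-hi libraries in the order above. Its QZ1-lo values were 174, 274, 239 and 189 CPM. As with Fos, 4593 and 4594 were the highest and 4591 and 4592 the lowest of their populations. The gap between the populations was narrow, since the lowest QZ1-hi library exceeded the highest QZ1-lo library by 0.460 CPM. Fosb differed by 0.76 on the log2 scale (SE 0.19, adjusted p = 0.0157), and without library 4593 it was 0.61 with an adjusted p of 0.0544.

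Fosl2, also called Fra-2 (chromosome 5, 32135801 to 32157842, plus strand), moved the other way. Its levels were 136, 137, 145 and 164 CPM in QZ1-hi and 201, 172, 187 and 186 CPM in QZ1-lo. The spread within a population was small, the highest library being 1.20 times the lowest in QZ1-hi and 1.17 times in QZ1-lo. Its fold change of -0.36 on the log2 scale (SE 0.11, adjusted p = 0.0461) was close to the threshold. It remained called in 1 of the 8 fits that left out a library, the one without 4597, and lost the call without any of the other 7, with log2 fold changes of -0.39 to -0.32 and adjusted p of 0.0364 to 0.133. With no filter on low counts the adjusted p was 0.0695.

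Fosl1, or Fra-1 (chromosome 19, 5447547 to 5455946, plus strand), was the rarest member, with 13 to 119 counts in a library. It was at 1.91, 2.82, 0.752 and 1.37 CPM in QZ1-hi and 3.55, 4.68, 2.82 and 2.99 CPM in QZ1-lo. All QZ1-lo libraries were above all QZ1-hi libraries, but the nearest pair, 4593 and 4596, differed by 0.00719 CPM. The log2 fold change of -1.03 (SE 0.44) did not pass the test (adjusted p = 0.142), and an interval of 2 SE on each side ran from -1.90 to -0.15. Scaled by library size alone it was called, at -1.49 (adjusted p = 0.0339). Of the 2033 exon bases of Fosl1, 1163 overlap exons of Ccdc85b on the opposite strand, and Ccdc85b itself was called higher in QZ1-hi (19.8 against 9.58 CPM, log2 fold change 1.05, SE 0.20, adjusted p = 0.00449). The strand setting of the counting is not given in the sources used here, so reads of this pair may not be told apart.

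Jun, the subunit that can pair with itself as well as with FOS proteins, was at 763, 1005, 1141 and 680 CPM in QZ1-hi. The QZ1-lo libraries had 444, 530, 661 and 346 CPM. Library 4595 was the highest and 4597 the lowest of QZ1-hi, and the lowest was 19.2 CPM above the highest QZ1-lo library, 4596. The means were 898 ± 213 and 495 ± 134 CPM (SD, n = 4 each), and they differed by 0.86 on the log2 scale (SE 0.22, adjusted p = 0.0185). Jun lost the call without 4592 (0.81, adjusted p = 0.0540), without 4593 (0.78, adjusted p = 0.0532) and without 4595 (0.70, adjusted p = 0.0562). The antisense gene Junos overlaps 232 of its exon bases.

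Junb, often a weaker activator than Jun that can restrain it, was at 317, 353, 429 and 330 CPM in QZ1-hi and 317, 335, 328 and 283 CPM in QZ1-lo. The populations overlapped, and library 4595 stood highest. For Junb the difference was 0.18 on the log2 scale (SE 0.13, adjusted p = 0.408), with an interval of 2 SE from -0.08 to 0.43. The same interval for Jun, from 0.42 to 1.29, overlaps it at its edge. Jund, the member that resting cells express most steadily (chromosome 8, 70698949 to 70700616, plus strand), was at 272, 351, 357 and 249 CPM in QZ1-hi and 306, 281, 375 and 259 CPM in QZ1-lo. Its mean levels were 307 ± 54.9 and 305 ± 50.4 CPM (SD, n = 4 each). This was a log2 difference of 0.01 (SE 0.16, adjusted p = 0.982), with an interval of -0.31 to 0.33. Scaled by library size alone, Junb was at -0.28, Jund at -0.46 and Atf3 at -0.37 on the log2 scale, none of them called, so the signs of these 3 differences depend on the scaling. Antisense exons overlap 877 of the 1668 exon bases of Jund (Gm11175) and 173 exon bases of Junb (Prdx2, log2 fold change 0.03).

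Atf3, a stress-induced bZIP protein that pairs with JUN proteins (chromosome 1, 191170296 to 191218039, minus strand), was at 238, 389, 377 and 272 CPM in QZ1-hi. In QZ1-lo it was at 256, 331, 351 and 254 CPM. The highest library of either population was 4593 and the lowest 4591, both of QZ1-hi, so the QZ1-lo values lay wholly inside the QZ1-hi range. Its log2 difference was 0.10 (SE 0.18, adjusted p = 0.789), with an interval of -0.27 to 0.46. It was -0.03 without 4593 and -0.02 without 4595.

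Egr1, a zinc finger transcription factor, and Ier2, a nuclear protein, lie outside the bZIP family. Egr1 was at 404, 623, 719 and 403 CPM in QZ1-hi and 263, 339, 349 and 225 CPM in QZ1-lo, with the lowest QZ1-hi library 54.3 CPM above the highest QZ1-lo library. Egr1 differed by 0.87 on the log2 scale (SE 0.22, adjusted p = 0.0167). Like Jun, it lost the call without 4592 (0.82, adjusted p = 0.0502), 4593 (0.77, adjusted p = 0.0517) and 4595 (0.68, adjusted p = 0.0534). Ier2 (chromosome 8, 84661331 to 84662852, minus strand) was at 125, 142, 174 and 108 CPM in QZ1-hi and 63.5, 88.0, 101 and 59.0 CPM in QZ1-lo. Its populations were 6.97 CPM apart at their nearest libraries, 4597 and 4596. Ier2 differed by 0.82 on the log2 scale (SE 0.20, adjusted p = 0.0147), and the call held without each library in turn (0.66 to 0.97). For each of the 7 genes without overlap, the exact permutation test over all 70 assignments of the libraries gave a two-sided p of 0.0286, the smallest that 4 against 4 allow. Absence of overlap alone fixes that value, and 22.6% of all genes tested had no overlap. The same exact test gave p = 0.2 for Junb, 0.629 for Atf3 and 1.0 for Jund.

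**Figure D2:**
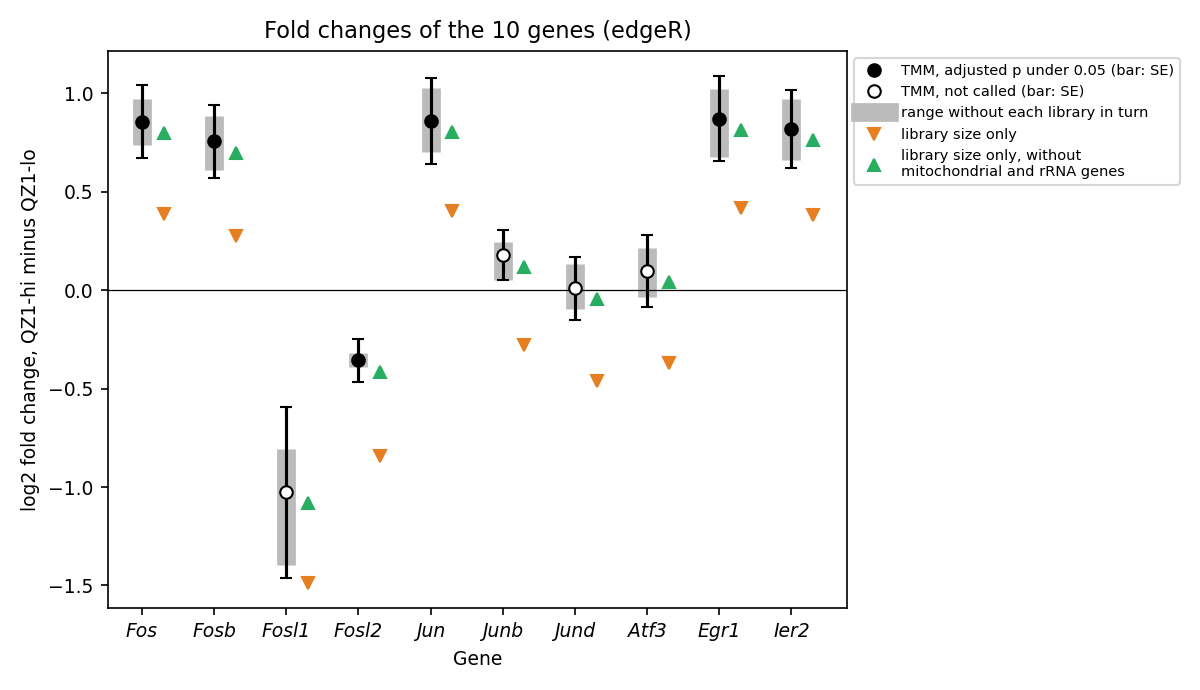
Log2 fold change of each gene, QZ1-hi minus QZ1-lo, under TMM scaling (circles with SE bars, filled where called), with the range over the 8 fits that left out a library (grey) and the values under the library size alone (orange) and under library size without mitochondrial and ribosomal RNA genes (green). Fos, Fosb, Jun, Egr1 and Ier2 sit between 0.76 and 0.87 under TMM, and under library size alone every gene lies lower by a like amount.

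Ratios between members within a library do not depend on any scaling between libraries. The ratio of Jun to Jund counts was 2.81, 2.87, 3.19 and 2.73 in QZ1-hi libraries 4591, 4593, 4595 and 4597 and 1.45, 1.89, 1.76 and 1.34 in QZ1-lo libraries 4592, 4594, 4596 and 4598. The Jun to Junb ratio was 2.06 to 2.85 in QZ1-hi and 1.22 to 2.02 in QZ1-lo. Neither ratio overlapped between the populations, while that of Junb to Jund did (1.01 to 1.32 against 0.872 to 1.19). Among FOS genes, the ratio of Fos to Fosl2 was 4.57, 7.26, 6.47 and 4.68 in QZ1-hi and 1.80, 3.16, 2.83 and 2.17 in QZ1-lo. Fosb to Fosl2 was 2.01 to 3.37 against 0.866 to 1.59, also without overlap. The ratio of Fos to Fosb overlapped (1.99 to 2.63 against 1.99 to 2.21). Every QZ1-hi library thus held more Jun per Jund, and more Fos and Fosb per Fosl2, than every QZ1-lo library, whichever scaling was used. How often ratios of other gene pairs separate the populations was not tested.

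**Figure D3:**
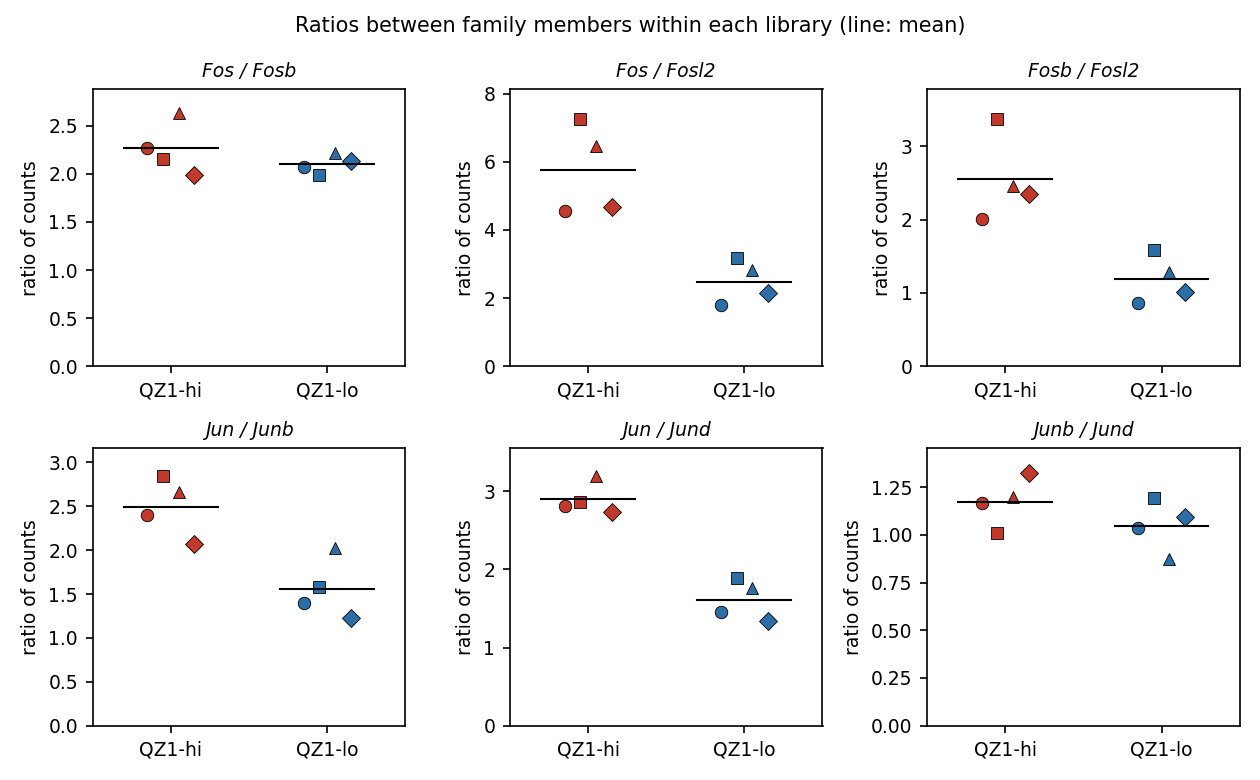
Ratio of raw counts between pairs of FOS and of JUN genes in each library, with QZ1-hi in red, QZ1-lo in blue and the mean as a line, on axes that start at 0. Fos to Fosl2, Fosb to Fosl2, Jun to Junb and Jun to Jund separate the populations, with Jun to Jund at 2.73 to 3.19 against 1.34 to 1.89, and Fos to Fosb and Junb to Jund overlap.

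Levels of different genes were set side by side per kilobase of exon, with each length taken over all GENCODE exons of a gene merged. Such a length can exceed the transcript in use (Fosb 6243 bases, Fosl2 9680, Jund 1668), which lowers the level per kilobase. The annotation used for counting is not given either, so the order below depends on these lengths. On this scale Fos was the most abundant member in both populations (353 ± 71.5 CPM per kb in QZ1-hi and 195 ± 38.7 in QZ1-lo, SD, n = 4 each). In QZ1-hi it was followed by Jun (281 ± 66.8), Jund (184 ± 32.9), Junb (155 ± 21.7), Atf3 (148 ± 34.9), Egr1 (120 ± 35.5), Ier2 (90.2 ± 18.6) and Fosb (59.2 ± 12.4). Fosl2 (15.0 ± 1.35) and Fosl1 (0.842 ± 0.430) came last. The ranges of neighbours in this order overlapped except between Fosb and Fosl2 and between Fosl2 and Fosl1. In QZ1-lo, Jund (183 ± 30.2) stood above Jun (155 ± 41.9) and Atf3 (138 ± 23.4) above Junb (137 ± 9.96), each pair with overlapping ranges, and Egr1 (65.5 ± 13.3), Ier2 (51.2 ± 13.2), Fosb (35.1 ± 7.37), Fosl2 (19.3 ± 1.22) and Fosl1 (1.73 ± 0.413) followed. There the ranges separated between Junb and Egr1, Fosb and Fosl2, and Fosl2 and Fosl1. Ranked by mean CPM over the 8 libraries among the genes tested, Jun was 57th, Fos 61st, Egr1 93rd and Fosl2 351st, while Fosl1 was 12271st.

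The makeup of each family on this per kilobase scale followed from these levels and depends on the same exon lengths. Jun made up 45.0% ± 2.26 of JUN family RNA in QZ1-hi and 32.2% ± 3.74 in QZ1-lo (SD, n = 4 each), without overlap. Jund made up 29.7% ± 1.15 and 38.5% ± 2.34, also without overlap, and Junb 25.3% ± 2.37 and 29.2% ± 3.07 with overlap. Fos made up 82.3% ± 1.76 of FOS family RNA in QZ1-hi and 77.5% ± 1.70 in QZ1-lo. Fosl2 made up 3.62% ± 0.769 and 7.91% ± 1.87, and Fosl1 0.201% ± 0.0983 and 0.696% ± 0.159, none of the 3 with overlap. The Fosb share was 13.8% ± 1.34 and 13.9% ± 0.630 and overlapped. Shares of a family add up to the whole, so a higher share of one member lowers the others.

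**Figure D4:**
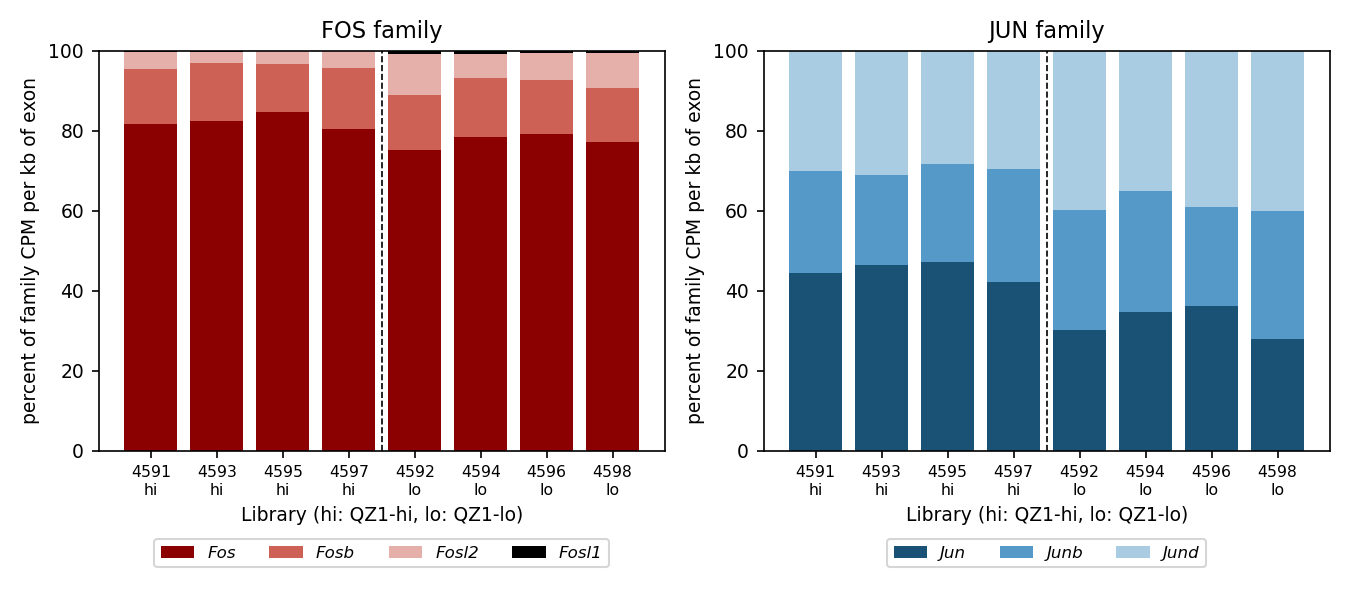
Percent of FOS family (left) and JUN family (right) CPM per kb of exon taken by each member, as stacked bars for the 4 QZ1-hi libraries and, right of the dashed line, the 4 QZ1-lo libraries. The Jun share was 42.2% to 47.2% in QZ1-hi and 28.0% to 36.1% in QZ1-lo, and the Fosl2 share 2.76% to 4.35% against 6.02% to 10.2%.

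Within each population the members did not all peak in the same library. Library 4593 was the highest of QZ1-hi for Fos, Fosb, Fosl1 and Atf3, and 4595 for Jun, Junb, Jund, Egr1 and Ier2. In QZ1-lo, 4594 was highest for Fos, Fosb, Fosl1 and Junb, 4596 for Jun, Jund, Atf3, Egr1 and Ier2, and 4598 was lowest for 6 members. Likeness of pattern was measured as the root mean square difference of log2 CPM over the 8 libraries after each gene's mean was taken off, as a description of these libraries. Among members the nearest pairs were Jun and Ier2 (0.0914), Jun and Egr1 (0.110), Fos and Fosb (0.122) and Egr1 and Ier2 (0.134). After each population's own mean was taken off instead, the nearest pair was Fos and Atf3 (0.0771), which over all 8 libraries were 0.393 apart with the populations apart in Fos and overlapping in Atf3. Of 15091 other named genes tested, those nearest to Fos were Zfp36 (0.123), which encodes an mRNA decay protein, Msantd3 (0.144) and Wfdc1 (0.154). Those nearest to Jun were Agpat4 (0.145), Snhg8 (0.150) and Cpq (0.151). Egr1 and Ier2 were nearer to Jun, and Fosb nearer to Fos, than any of these genes.

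Calls among the other genes of the pathway went in both directions. Of 16 other bZIP genes that can join AP-1 or CREB dimers, 2 were called higher in QZ1-hi and 1 lower, with a median log2 fold change of -0.01. These calls were close to the share over all genes, 9.88% higher, 8.21% lower and 18.1% in either direction. Maf, a large MAF protein, was at 12.7 ± 4.98 against 3.27 ± 0.558 CPM (log2 fold change 1.96, SE 0.29, adjusted p = 0.000935). Cebpd, a C/EBP protein, rose by 1.23 (SE 0.27, adjusted p = 0.00892), or 0.78 without library 4595, where it was at 241 CPM, and scaled by library size alone it was 0.80 without a call (adjusted p = 0.0683). Maff, a small MAF protein, fell by 0.54 on the log2 scale (SE 0.14, adjusted p = 0.0239) and lost the call without 4591, 4594 or 4596 (adjusted p of 0.0547 to 0.0587).

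Among 45 other immediate early genes, 43 could be tested (not Egr4 and Npas4), and 8 were called higher and 8 lower, with a median of -0.06. These counts stand beside 9.88% and 8.21% of all genes. The higher genes included the Kruppel-like factors Klf4 (229 ± 46.0 against 65.1 ± 5.36 CPM, log2 fold change 1.81, SE 0.15, adjusted p = 0.000144) and Klf2 (156 ± 36.9 against 47.1 ± 12.1 CPM, 1.73, SE 0.22, adjusted p = 0.000480). Both are strongly expressed in endothelial cells under flow. Apold1, an endothelial immediate early gene, was called higher as well, at 15.1 ± 6.32 against 1.59 ± 0.663 CPM (3.24, SE 0.42). Plk2, a polo-like kinase (0.81), Socs3, an inhibitor of cytokine signaling (0.91), and Zfp36 (0.73) were also called higher, and these 3 lost the call when scaled by library size alone (0.39, 0.48 and 0.27). Called lower were Arc, best known from neurons (7.89 ± 4.41 against 23.8 ± 5.31 CPM, -1.59, SE 0.33), the kinase Sik1 (101 ± 9.44 against 176 ± 14.7 CPM, -0.80, SE 0.12), Gadd45b, a growth arrest protein (-0.80), Trib1, a pseudokinase (-0.71), Bhlhe40, a repressor of the clock (-0.56), and Zfp36l1, a relative of Zfp36 (-0.52). Of these, Zfp36l1 lost the call in 5 of the 8 fits that left out a library (without 4591, 4594, 4595, 4596 or 4597, adjusted p of 0.0529 to 0.0815), and the number called lower was 5 without 4591, 4595 or 4596.

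Upstream, 3 of 24 kinases and serum response partners were called higher and 1 lower, with a median of 0.08. That is close to the 18.1% of all genes called in either direction. Elk3, a ternary complex factor known for its role in vessels, was at 50.1 ± 10.2 against 25.2 ± 1.49 CPM (log2 fold change 0.99, SE 0.15, adjusted p = 0.00121). Mrtfb, an actin-regulated coactivator of serum response factor, was at 88.5 ± 10.5 against 58.4 ± 3.69 CPM (0.60, SE 0.12). Scaled by library size alone, both lost the call, at 0.57 for Elk3 (adjusted p = 0.155) and 0.15 for Mrtfb (adjusted p = 0.692). Map2k6, a p38 kinase kinase, was near the floor of detection (0.790 to 3.93 against 0.0407 to 0.651 CPM, 3.28, SE 0.88), and its call was lost without 4591, 4592, 4594 or 4595 (adjusted p of 0.0509 to 0.0773). Map2k4, a kinase of the JNK pathway that acts on Jun protein, was at 34.2 ± 7.56 against 54.5 ± 11.6 CPM (-0.67, SE 0.18, adjusted p = 0.0265), a call lost without 4592, 4593, 4595 or 4597 (adjusted p of 0.0575 to 0.0782). RNA levels of kinases say nothing of their activity.

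Of 24 genes known as AP-1 targets, 23 could be tested (Mmp1a had no count in any library), with 4 called higher, 5 lower and a median of 0.26. Over all genes the shares were 9.88% higher and 8.21% lower. Mmp3 (14.9 ± 5.81 against 0.701 ± 0.836 CPM, log2 fold change 4.40, SE 0.64) and Timp1 (17.2 ± 10.7 against 3.36 ± 2.32 CPM, 2.35, SE 0.51), a matrix protease and a protease inhibitor that fibroblasts express, were called higher. The transcription factor Ets1 was also called higher (89.3 ± 29.2 against 39.8 ± 11.1 CPM, 1.17, SE 0.25), a call lost when scaled by library size alone (0.74, adjusted p = 0.104). The EGF family ligands Areg (72.7 ± 16.3 against 182 ± 3.61 CPM, -1.32, SE 0.15) and Hbegf (-0.54, SE 0.15), the cytokine Lif (-0.91, SE 0.26) and the protease Mmp9 (-0.89, SE 0.22) were called lower, as was Krt18, an epithelial keratin that is also on the pan-epithelial marker list (-1.45, SE 0.21). Hbegf lost the call without 4592, 4594, 4595, 4596 or 4597 (adjusted p of 0.0534 to 0.0935) and Lif without any library but 4591 or 4598 (adjusted p of 0.0512 to 0.0971), and the number called lower was 3 without 4592, 4594, 4595 or 4596. The called genes of this list thus split in direction. Of the AP-1 subunits, Fos, Fosb and Jun were called higher, Fosl2 was called lower, and Fosl1, Junb, Jund and Atf3 were not called. Any link between the subunits and these target genes was not tested.

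The heat shock genes, another rapidly induced group, were examined beside these, in a test that called 8.21% of all genes lower. Of 13, 3 were called lower, Hsph1 (43.6 ± 0.624 against 80.4 ± 17.6 CPM, log2 fold change -0.88, SE 0.15), Hsp90aa1 (205 ± 38.4 against 345 ± 60.5 CPM, -0.75, SE 0.17) and Hsp90ab1 (-0.40, SE 0.12), and the other 10 were not called, with a median of -0.07 over the list. Hsp90ab1 kept its call in 1 of the 8 fits that left out a library, the one without 4593, and lost it without any of the others (adjusted p of 0.0586 to 0.129). Hspa1a, the inducible HSP70, was at 190 to 507 CPM in QZ1-hi and 163 to 656 CPM in QZ1-lo (log2 fold change 0.07, SE 0.40), a wide spread within each population, and its reads may not be told apart from those of its near-identical copy Hspa1b.

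**Figure D5:**
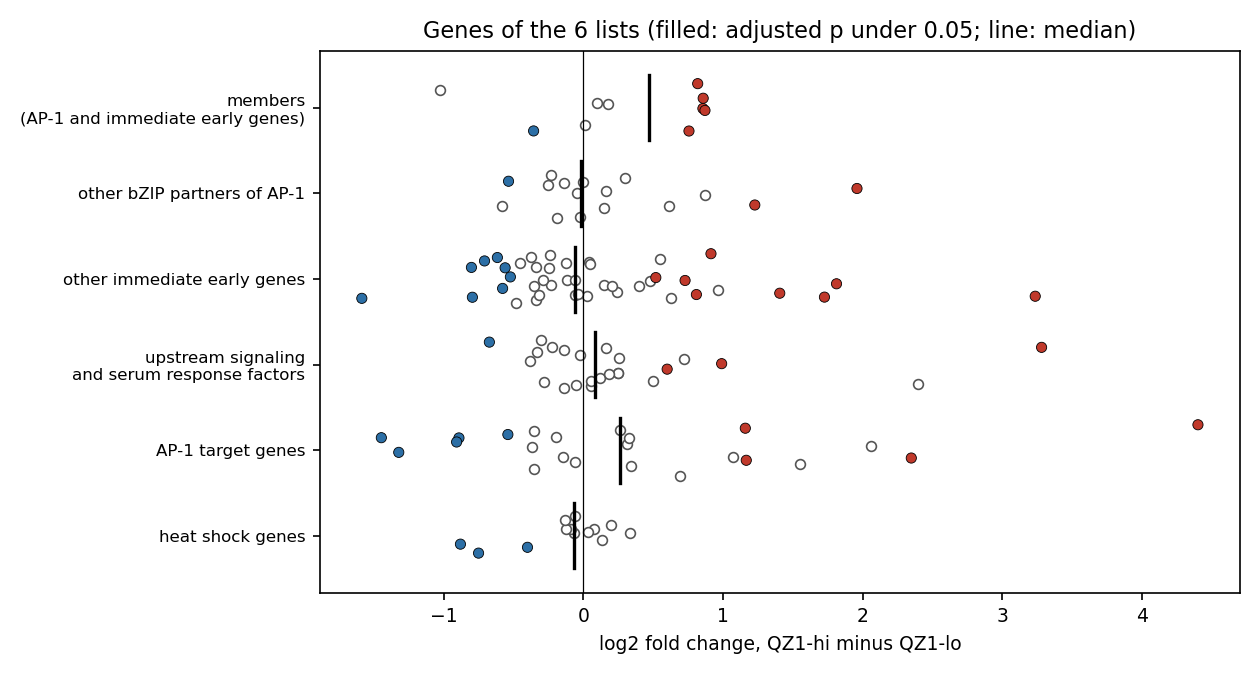
Log2 fold change (QZ1-hi minus QZ1-lo) of each tested gene of the 10 members and of the 5 other lists, filled where the adjusted p was under 0.05 (red higher, blue lower), with the median of each list as a bar. The members' median is 0.47, and the medians of the other lists lie between -0.07 and 0.26.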

How the data were processed

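Counts per gene of the 8 libraries were deposited by the authors as raw whole numbers, made with Rsubread in R from reads of SMARTer stranded total RNA libraries on a NextSeq500. The submitters' processing notes name mm10 and DESeq2. The aligner, annotation and strand setting are not given in the sources used here. Of 27179 Entrez identifiers, 25275 were given a symbol and 1904 were not. Exon lengths and positions came from GENCODE M21 (GRCm38), promoters from RefSeq. Library totals were 18380918 to 26847938, and a floor of 3 counts equalled 0.0894 to 0.179 CPM, a limit for counting error alone.

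The test was run with edgeR 4.0.16 in R 4.3.3 (filterByExpr with minimum count 10 and minimum total 15, TMM, quasi-likelihood test, Benjamini-Hochberg over 15583 genes, no covariate). The procedure was also run on simulated counts with few changed genes, balanced in direction. Those counts held no shift in RNA makeup between the populations, so that run cannot speak to the choice of scaling. Each SE was taken from the F statistic (fold change on the log2 scale over the root of F). Mean log2 CPM of single genes was compared by exact permutation. Alternatives were DESeq2 1.42.0, limma 3.58.1 with voom, other scalings and filters, robust shrinkage and leaving out each library. The members, the lists and the naming rule were chosen with earlier results of these data known. From each list, called genes were named by smallest p, at most 6 in each direction, and 1 called gene of the AP-1 target list is not reported here.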

Additional observations from a re-analysis of the deposited data

Results flagged for a closer look

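Among the 41 genes checked in each population, 4 had 1 library far from the other 3 of its population (a gap over range above Dixon's critical value for 4 samples), and chance flags about 1 in 20 groups. Cebpd was at 241 CPM in QZ1-hi library 4595, above the other 3 QZ1-hi libraries. Mmp3 was at 1.95 CPM in QZ1-lo library 4596, above the rest of QZ1-lo. Timp1 was at 6.80 CPM in QZ1-lo library 4592, likewise the highest of its population. Mmp9 was at 22.8 CPM in QZ1-hi library 4597, the highest of QZ1-hi. None of the 10 AP-1 and immediate early genes had such a library.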

How the results depend on the processing

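Of 170 values of the 10 genes under 17 alternatives, 139 kept their direction and side of the threshold, 20 lost the call, 1 gained it and 10 changed sign. Leaving out a library gave 20 of these changes and scaling by library size alone 9. Under the latter the log2 fold changes were 0.39 for Fos, 0.27 for Fosb, 0.40 for Jun, 0.42 for Egr1 and 0.38 for Ier2 (none called), -1.49 for Fosl1 (called), and -0.28 for Junb, -0.46 for Jund and -0.37 for Atf3 (changed sign). There 0 members were called higher and 2 lower, against 882 and 2509 of all genes, 1 and 2 other bZIP genes, 3 and 14 other immediate early genes, 1 and 3 upstream genes, and 2 higher AP-1 targets. With mitochondrial and ribosomal RNA genes left out of the library size (chosen after seeing the data), Jund was at -0.046 and 2 bZIP and 2 upstream genes were called lower. With no filter, Fosl2 was at -0.36 without a call and 0 members were called lower; the larger number of genes tested (21271) enters the adjustment. Leaving out each library gave 0.74 to 0.97 for Fos, 0.61 to 0.88 for Fosb, 0.70 to 1.03 for Jun, 0.68 to 1.02 for Egr1, 0.66 to 0.97 for Ier2, -0.39 to -0.32 for Fosl2, -0.10 to 0.13 for Jund and -0.03 to 0.22 for Atf3. Calls then numbered 2 to 5 higher and 0 to 1 lower among members, 0 to 1 lower bZIP, 5 to 8 lower and 6 to 11 higher immediate early, 0 to 1 lower and 2 to 4 higher upstream, and 3 to 5 lower target genes, and 1136 to 1506 higher and 938 to 1201 lower among all genes. Jund changed sign without 4593 (-0.08), 4594 (-0.03), 4595 (-0.10) and 4598 (-0.06), and Atf3 without 4593 (-0.033) and 4595 (-0.016). Of 525 values of the 31 named list genes, 481 kept direction and call, 44 lost the call and 0 changed sign. No paired analysis was possible because the labels number no replicates, and numbers given in accession order pair no libraries. Fosl1, at 13 to 119 counts a library, had the lowest depth of the 10 genes and the largest SE.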
